A study of Mus musculus with 8 samples.

Results

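Transcripts of 9 genes of adrenergic receptor and cAMP signalling were followed in hearts of wild-type (WT) and TAZG197V mice. The genes were listed by name, with earlier results of these data known, and they are the receptors Adrb1, Adra1a and Adra1b, the adenylyl cyclases Adcy5 and Adcy6, the phosphodiesterases Pde3a and Pde4d, and the protein kinase A (PKA) subunits Prkaca and Prkar1a. All 9 were found among the 55471 gene rows and all 9 passed the filter on low counts that left 15084 genes for testing. TAZG197V mice carry a patient-derived missense mutation in the X-linked gene Tafazzin, which encodes the mitochondrial enzyme that remodels cardiolipin, and they serve as a model of Barth syndrome. The mutation was introduced by CRISPR/Cas9 into C57BL/6N zygotes, and edited founders were crossed with C57BL6/J for 2 generations, so the line is of mixed substrain. RNA came from small pieces of heart of untreated mice given as 14 weeks old, in 4 WT and 4 TAZG197V libraries that the labels do not tie to separate animals. The study worked with hemizygous males as mutants, but the labels of these samples give neither sex nor litter, and they do not say which part of the heart was taken.

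Noradrenaline from sympathetic nerves and adrenaline from the blood act on the heart muscle cell through 2 receptor classes. Beta receptors couple to the stimulatory G protein, which activates adenylyl cyclase, the enzyme that makes cAMP. cAMP binds the regulatory subunits of PKA and frees the catalytic subunits, which phosphorylate calcium-handling and contractile proteins and so raise the force and rate of the beat. Phosphodiesterases break cAMP down. Alpha1 receptors couple to Gq and phospholipase C and are known for their part in growth and survival of cardiac muscle cells.

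Transcripts of both alpha1 receptors fell the most of the 9 genes in TAZG197V hearts. Adra1a fell by 1.54 and Adra1b by 1.49 on the log2 scale, whereas Adrb1, the main beta receptor of heart muscle, fell by 0.34. Of the PKA subunits, the catalytic Prkaca fell by 0.48 and the regulatory Prkar1a rose by 0.26. Of the other 4 genes, Adcy5 rose, Pde4d fell, and Adcy6 and Pde3a were not called. A gene was called when its adjusted p (edgeR quasi-likelihood test, Benjamini-Hochberg over all genes tested) was under 0.05, the higher of the 2 levels exceeded the lower by over 15% and its mean scaled count was at least 50. By this rule 5 of the 9 genes were lower and 2 were higher, against 15.1% of all tested genes lower and 18.5% higher, and 33.5% called in either direction. In 4 of the 9 genes the 2 genotypes did not overlap, against 33.2% of all tested genes. The median log2 fold change of the 9 genes was -0.26 and that of all tested genes was -0.01.

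The 8 libraries held 23055689 to 36301031 counts, and mitochondrially encoded genes took 21.6% to 24.6% of them. Levels are given below as CPM, the counts of a gene relative to all counts of its library after TMM scaling. In both genotypes lane 7 carried libraries 1 and 2, and lane 8 carried 3 and 4. The edited gene Taz had a mean ± SD over 4 libraries of 60.9 ± 2.36 CPM in WT against 47.3 ± 2.60 CPM in TAZG197V, and it was called lower (log2 fold change -0.37, edgeR adjusted p = 0.00124). For the heart label, ventricular myocyte markers were abundant and summed to 55228 to 63726 CPM in WT and 48190 to 51572 in TAZG197V, with 2 of 6 called lower. Atrial myocyte markers set WT 1 and WT 2 apart, with a mean log2 CPM of 3.58 and 6.52 against 0.70 and 0.52 in WT 3 and WT 4 and -0.15 to 0.23 in TAZG197V, and 4 of 7 were called lower. Their sum ran from 20.8 to 1145 CPM in WT and from 29.6 to 131.8 in TAZG197V. Red cell markers reached 50230 CPM in WT 4 and stayed at or under 981.0 in the other 7 libraries, and 5 of 5 were called lower. Neuron and glia markers were highest in the number 4 libraries, at 113.9 CPM in WT and 275.2 in TAZG197V, against 13.8 to 21 in the other 6. Fibroblast markers had 3 of 5 called lower, endothelial markers 2 of 5 and macrophage markers 0 of 5. The smooth muscle and pericyte markers had 3 of 5 called lower and 1 higher, and the adipocyte markers 2 of 5 lower. The part of these differences in the results below was not tested except where a fit without the libraries or with the atrial marker level as covariate is given, and in bulk tissue fewer cells of a type and less RNA per cell cannot be told apart. Every WT library had a higher atrial marker level than every TAZG197V library. A fit with this level as covariate therefore cannot fully tell genotype and atrial content apart, whether a call is kept or lost.

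**Figure D1:**
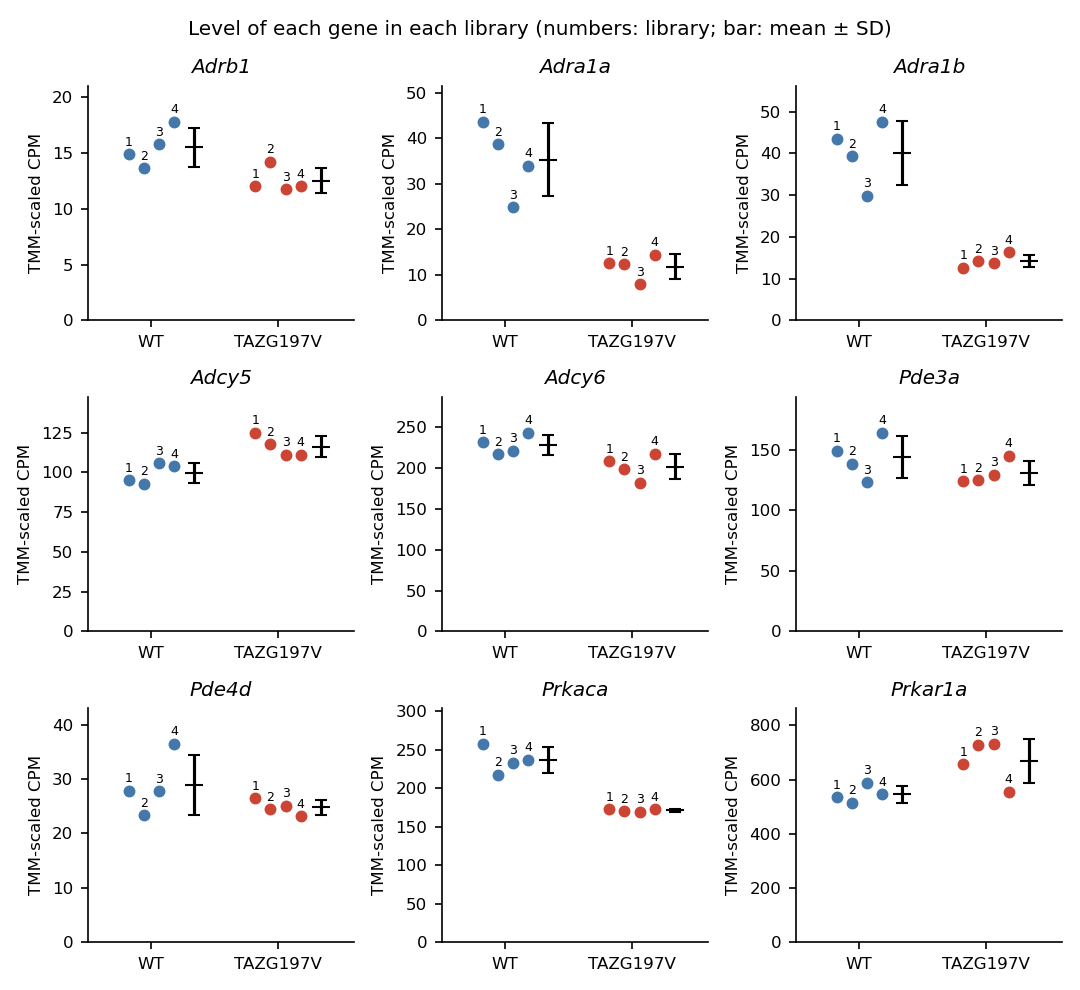
Level of each of the 9 genes in each library, in TMM-scaled CPM on a linear axis from 0, with WT in blue and TAZG197V in red. Small numbers name the library, and the bar beside each group is the mean ± SD of 4 libraries. For Adra1a, Adra1b and Prkaca all TAZG197V points lie below all WT points, for Adcy5 they lie above, and in the other 5 genes the groups overlap.

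Promoter windows show where transcription of these genes starts, and they were read for the cAMP response element, the site TGACGTCA that CREB proteins bind. RefSeq windows on GRCm38.p6 (250 bases before to 50 after each start) were found for 6 of the 9 genes, 13 windows in all, and Adra1a, Adcy6 and Pde3a were not among them. The full element, read on both strands, was found in 588 of 32851 promoter windows in the mouse genome (1.79%). Of the 13 windows 2 held it, both of Prkar1a and both over the same site. Another element, TTGCATCA, bound by C/EBP and ATF heterodimers, lay in 0.895% of all windows and in 0 of the 13. Windows of Prkar1a, which rose, and of Prkaca and Adra1b, which fell, are printed 5′ to 3′ on the gene's strand as examples of genes called in either direction. The window of Adcy5, which also rose, held no element, and neither did 4 of the 6 Prkar1a windows. Capitals mark the full element. It begins at base 202 of the printed Prkar1a window, before that start, and at base 289 of the overlapping window, after the other start. A match of letters is not a bound site, and the windows of Prkaca and Adra1b hold no match in these 300 bases.
Prkar1a, chr11:109650699-109650998, plus strand: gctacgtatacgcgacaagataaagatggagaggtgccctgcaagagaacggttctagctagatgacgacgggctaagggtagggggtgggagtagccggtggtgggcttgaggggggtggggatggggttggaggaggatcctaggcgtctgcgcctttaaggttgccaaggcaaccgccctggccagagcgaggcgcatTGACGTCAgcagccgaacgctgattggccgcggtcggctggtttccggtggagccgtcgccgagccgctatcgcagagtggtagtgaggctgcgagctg
Prkaca, chr8:83972728-83973027, plus strand: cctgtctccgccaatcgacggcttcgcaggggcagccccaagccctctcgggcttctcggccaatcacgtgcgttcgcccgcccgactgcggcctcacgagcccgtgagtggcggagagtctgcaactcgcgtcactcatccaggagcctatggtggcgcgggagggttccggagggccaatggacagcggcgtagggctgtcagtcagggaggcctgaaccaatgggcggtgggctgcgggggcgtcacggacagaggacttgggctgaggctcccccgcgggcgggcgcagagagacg
Adra1b, chr11:43901188-43901487, minus strand: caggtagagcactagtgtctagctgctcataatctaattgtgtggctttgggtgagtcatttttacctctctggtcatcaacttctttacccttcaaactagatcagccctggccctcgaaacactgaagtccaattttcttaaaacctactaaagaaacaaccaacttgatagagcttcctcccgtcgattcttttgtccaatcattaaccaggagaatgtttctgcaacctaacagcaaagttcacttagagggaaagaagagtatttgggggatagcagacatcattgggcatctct

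Adra1a encodes the alpha1A receptor (ENSMUSG00000045875, chr14:66635251-66771168 in mm10, plus strand). Its level was 43.6, 38.7, 24.9 and 34.02 CPM in WT 1 to WT 4, from 1290, 1409, 641 and 762 counts. In TAZG197V 1 to 4 it was 12.6, 12.3, 8.00 and 14.4 CPM, from 346, 456, 248 and 393 counts. The highest TAZG197V library lay well under the lowest WT library. The mean was 35.3 ± 7.98 CPM in WT against 11.8 ± 2.71 CPM in TAZG197V (± SD over 4 libraries, here and below), and the fitted level was 2.9-fold higher in WT (log2 fold change -1.54, SE 0.184, 95% interval -1.96 to -1.11, edgeR adjusted p = 0.000461). WT 1 and WT 2, the libraries with most atrial transcripts, also held the 2 highest Adra1a levels. Without them the log2 fold change was -1.26 (edgeR adjusted p = 0.0026), and with the atrial marker level as covariate it was -1.34 (adjusted p = 0.00762).

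Adra1b encodes the alpha1B receptor (ENSMUSG00000050541, chr11:43774606-43901210, minus strand). The 4 WT libraries held 43.5, 39.4, 29.9 and 47.5 CPM, from 1285, 1432, 769 and 1065 counts. The 4 TAZG197V libraries held 12.6, 14.2, 13.8 and 16.3 CPM, from 348, 527, 427 and 444 counts. Again the groups stood apart, and the spread was smaller in TAZG197V (coefficient of variation 10.7%) than in WT (18.9%), a difference that was not tested. The means were 40.1 ± 7.57 and 14.2 ± 1.52 CPM, a 2.8-fold difference (log2 fold change -1.49, SE 0.119, 95% interval -1.76 to -1.21, edgeR adjusted p = 6.26e-05). It had the smallest adjusted p of the 9 genes. Without WT 1 and WT 2 the log2 fold change was -1.36 (edgeR adjusted p = 0.000541).

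Adrb1 encodes the beta1 receptor, through which noradrenaline raises contractility (ENSMUSG00000035283, chr19:56722199-56733113, plus strand). WT 1 to WT 4 gave 14.9, 13.6, 15.8 and 17.8 CPM, and TAZG197V 1 to 4 gave 12.1, 14.2, 11.7 and 12.1 CPM. The groups overlapped through TAZG197V 2, which lay above WT 2. The mean fell from 15.5 ± 1.76 to 12.5 ± 1.14 CPM (log2 fold change -0.34, SE 0.0871, 95% interval -0.54 to -0.14, edgeR adjusted p = 0.0161). This call did not hold without both number 4 libraries (log2 fold change -0.21, edgeR adjusted p = 0.123), and leaving out WT 3, WT 4, TAZG197V 1 or TAZG197V 4 alone also ended it. Without WT 4 alone, which held the highest level, the log2 fold change was -0.23 (edgeR adjusted p = 0.0972).

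The 3 members were set beside 5 other adrenergic receptor genes, of which 2 were tested, 1 was lower and 0 were higher. Adra1d, the third alpha1 receptor, fell from 2.85 ± 0.867 to 1.41 ± 0.326 CPM (log2 fold change -1.10, SE 0.195, edgeR adjusted p = 0.00306) with no overlap. Leaving out TAZG197V 4 moved it past the threshold (adjusted p = 0.0544). Adrb3 and 2 of the 3 alpha2 receptor genes did not pass the filter, and Adrb3 had 0 to 13 counts per library.

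Levels per kilobase of exon allow a rough comparison between genes. The length takes all annotated exons of a gene together, and not the transcripts in use in these hearts. Per length, the transcripts of Adra1a, Adra1b, Adra1d and Adrb1 summed to 21.99 ± 2.9 CPM per kb in WT and 10.0 ± 0.605 in TAZG197V. The groups did not overlap. Adra1b was the largest share in each library but TAZG197V 2, where it and Adrb1 had the same 527 counts over the same exon length of 3382 bases. It made up 53.6% ± 3.72 of the sum in WT and 42.0% ± 2.93 in TAZG197V. Adrb1 made up 21.1% ± 3.10 in WT and 37.0% ± 2.74 in TAZG197V, and each TAZG197V library was above each WT library. Adra1a and Adra1b together stood at 3.49 ± 0.720 times Adrb1 in WT and 1.51 ± 0.209 times in TAZG197V, with no overlap. The ratio of Adra1b to Adra1a was 2.97 ± 0.484 in WT and 3.23 ± 0.824 in TAZG197V and its ranges overlapped. These shares and ratios are descriptions of transcripts and carry no test.

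**Figure D2:**
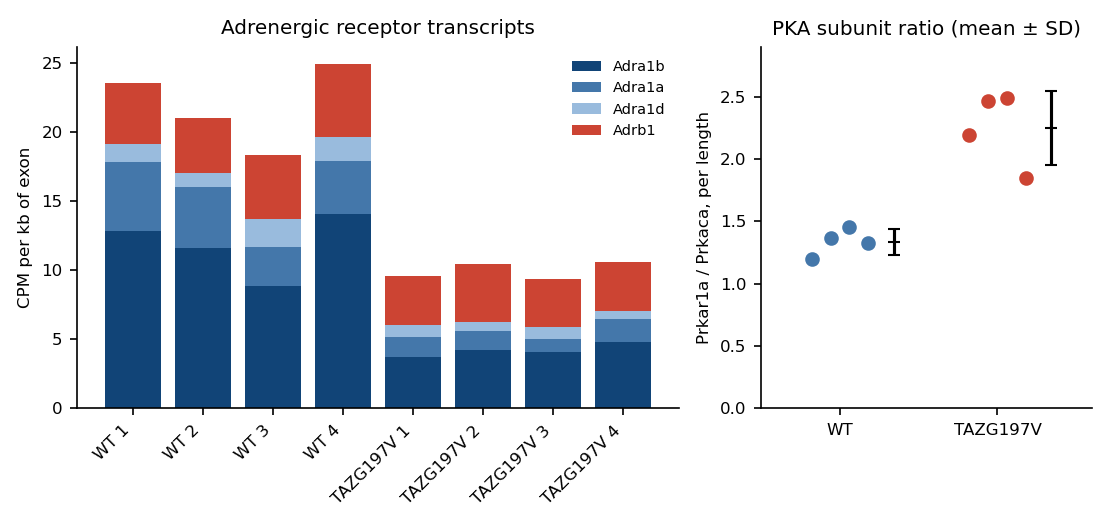
Left, transcripts of 4 adrenergic receptor genes stacked for each library, in CPM per kb of exon from 0, with alpha1 receptors in blue and Adrb1 in red. Right, the ratio of Prkar1a to Prkaca per length in each library, with the mean ± SD of 4. The receptor sum is 18.4 to 24.9 CPM per kb in WT and 9.38 to 10.6 in TAZG197V, and the subunit ratio is 1.20 to 1.45 in WT and 1.85 to 2.49 in TAZG197V.

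**Figure D3:**
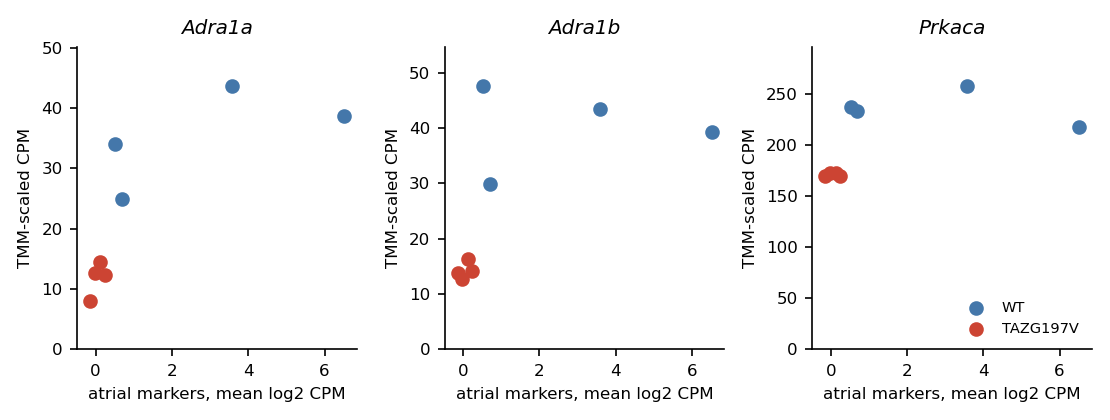
Levels of Adra1a, Adra1b and Prkaca in TMM-scaled CPM (vertical axis from 0) against the mean log2 CPM of 7 atrial myocyte markers (horizontal axis), one point per library, WT in blue and TAZG197V in red. All WT libraries lie above all TAZG197V libraries in each panel, and the atrial marker level is 0.52 to 6.52 in WT and -0.15 to 0.23 in TAZG197V.

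Genes that pass the receptor signal on or switch it off did not move together. Of the 6 G protein genes 1 was called, Gnai1, an inhibitory subunit of low level, which rose from 6.65 ± 1.74 to 11.0 ± 4.37 CPM (log2 fold change 0.74, SE 0.0993, edgeR adjusted p = 0.000797) and was highest, at 17.6 CPM, in TAZG197V 4, the library with most neuron and glia markers. The Gnai1 call was lost without TAZG197V 4, with no surrogate variables, with lane as covariate and with the atrial marker level as covariate (edgeR adjusted p = 0.152). Gnas, the stimulatory subunit, stood at 17.5 ± 1.89 and 16.5 ± 1.97 CPM (log2 fold change -0.10, edgeR adjusted p = 0.398), and 22% of its exon bases lie in another gene on the opposite strand. Of 6 receptor kinase and arrestin genes, 1 was higher and 4 were lower. Grk5, a kinase that desensitises adrenergic receptors and can enter the nucleus, read 40.7, 52.6, 53.0 and 51.7 CPM in WT and 103.3, 110.7, 99.4 and 105.3 CPM in TAZG197V. Every TAZG197V library stood far above every WT library (log2 fold change 1.08, SE 0.0960, edgeR adjusted p = 0.000104). Grk2, the main beta receptor kinase of the heart, fell from 72.4 ± 7.07 to 62.1 ± 2.07 CPM (log2 fold change -0.24, SE 0.0561, edgeR adjusted p = 0.00991) with overlap, a call that held in 13 of 19 other fits and was lost with lane as covariate, with the replicate block, with no low-count filter, and without WT 4, TAZG197V 4 or both. Per length Grk5 stood at 0.437 ± 0.0676 times Grk2 in WT and 1.07 ± 0.0600 times in TAZG197V. Grk6 (log2 fold change -0.50) and the arrestin gene Arrb1 (-0.45) were also called lower. The Grk6 call held in all 19 other fits, and that of Arrb1 was lost with no surrogate variables, with the atrial marker level as covariate (edgeR adjusted p = 0.145) and without TAZG197V 1 or TAZG197V 2 alone.

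On the alpha1 side, 2 of 9 effector genes were lower and 0 were higher. Plcb3, a phospholipase C that Gq activates, fell from 26.3 ± 1.08 to 19.0 ± 0.791 CPM (log2 fold change -0.46, SE 0.0645, edgeR adjusted p = 0.000947). Rgs5, which shortens the signal of G proteins, fell from 650.1 ± 88.1 to 485.5 ± 30.1 CPM (log2 fold change -0.42, SE 0.104, edgeR adjusted p = 0.0147), and is also a marker gene of pericytes. The Rgs5 call was lost with the atrial marker level as covariate and without TAZG197V 1 or TAZG197V 2 alone, and that of Plcb3 held in all 19 other fits.

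Adcy5 and Adcy6 encode the 2 main adenylyl cyclases of heart muscle. Adcy5 (ENSMUSG00000022840, chr16:35154877-35305738, plus strand) read 95.2, 92.9, 105.8 and 103.8 CPM in WT and 124.9, 117.8, 111.2 and 111.1 CPM in TAZG197V. Every TAZG197V library was above every WT library, by a small margin in libraries 3 and 4. The rise was 1.16-fold (log2 fold change 0.21, SE 0.0608, 95% interval 0.07 to 0.35, edgeR adjusted p = 0.0273). With the atrial marker level as covariate the log2 fold change was 0.14 (edgeR adjusted p = 0.193), and leaving out WT 1, WT 2, TAZG197V 1 or TAZG197V 2 alone also ended the call. DESeq2 gave 0.20 with an adjusted p of 0.0363 and a fold change just under the cut-off.

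Adcy6 (ENSMUSG00000022994, chr15:98589973-98610076, minus strand) read 231.9, 217.1, 221.4 and 243.5 CPM in WT and 208.5, 199.1, 182.4 and 218.1 CPM in TAZG197V. Only TAZG197V 4 reached into the WT range. The log2 fold change was -0.19 (SE 0.0606, 95% interval -0.33 to -0.05), with an edgeR adjusted p of 0.0403 and a fold under the cut-off, so it was not called. Of its exon bases 8.92% lie in a gene on the opposite strand. Per length the ratio of Adcy5 to Adcy6 was 0.411 ± 0.0276 in WT and 0.545 ± 0.0433 in TAZG197V, with no overlap.

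Of the other 8 adenylyl cyclase genes 7 were tested, 3 were lower and 0 were higher. Adcy4 fell from 24.2 ± 3.14 to 18.2 ± 0.535 CPM (log2 fold change -0.39, SE 0.0937, edgeR adjusted p = 0.0118) and Adcy9 from 31.4 ± 6.91 to 24.5 ± 3.07 CPM (log2 fold change -0.41, SE 0.122, edgeR adjusted p = 0.0299). The Adcy4 call was lost only with the atrial marker level as covariate (edgeR adjusted p = 0.0552). The Adcy9 call held in 6 of 19 other fits. It was lost without WT 4 or TAZG197V 4 alone and without both (edgeR adjusted p = 0.278), and with 1 library left out the value ran from -0.49 to -0.15. Adcy1, a cyclase of neurons and of the sinoatrial node, read 11.0, 9.54, 8.66 and 19.5 CPM in WT but 2.03, 1.97, 2.32 and 23.6 CPM in TAZG197V. It was called lower (log2 fold change -1.52, edgeR adjusted p = 0.00274) although TAZG197V 4 held the highest level of all, and the neuron and glia markers were highest in the same number 4 libraries. The call was lost with no surrogate variables, with lane as covariate, with the replicate block and with the atrial marker level as covariate (edgeR adjusted p = 0.567). Adcy2, Adcy3 and Adcy7 were not called, with log2 fold changes of -0.21, -0.17 and -0.34.

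Pde3a and Pde4d encode phosphodiesterases that degrade cAMP near the sarcoplasmic reticulum and other PKA targets. Pde3a (ENSMUSG00000041741, chr6:141249269-141507448, plus strand) read 149.1, 138.6, 123.1 and 164.0 CPM in WT and 123.8, 125.0, 129.6 and 145.0 CPM in TAZG197V. The groups overlapped, and the log2 fold change of -0.14 (SE 0.0701, 95% interval -0.30 to 0.02, edgeR adjusted p = 0.148) was not called. Leaving out WT 3, its lowest WT library, gave -0.20 (edgeR adjusted p = 0.0306), which was called. Leaving out WT 4, its highest, gave -0.09 (edgeR adjusted p = 0.378). Of its exon bases 5.82% lie in a gene on the opposite strand.

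Pde4d (ENSMUSG00000021699, chr13:108449948-109953461, plus strand) read 27.9, 23.3, 27.8 and 36.5 CPM in WT and 26.5, 24.4, 25.1 and 23.1 CPM in TAZG197V. WT 4 stood above the other 7 libraries, which ranged together. The log2 fold change was -0.26 (SE 0.0793, 95% interval -0.44 to -0.08, edgeR adjusted p = 0.0320), and the gene was called lower. The call was lost with 0 or 1 surrogate variable and without WT 1, WT 2, TAZG197V 2 or TAZG197V 3 alone. These omissions left the log2 fold change at -0.31 to -0.29, whereas omission of a number 4 library made it small. Without WT 4 alone the log2 fold change was -0.07 (edgeR adjusted p = 0.498), without TAZG197V 4 alone it was -0.07 (adjusted p = 0.525), and without both it was -0.05 (adjusted p = 0.659).

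Among the other phosphodiesterase genes 3 of 13 were lower and 1 was higher. Pde4a, a relative of Pde4d that also degrades cAMP, read 80.1, 68.3, 85.2 and 95.8 CPM in WT and 47.2, 43.3, 42.2 and 45 CPM in TAZG197V. The groups were far apart, with a log2 fold change of -0.92 (SE 0.0586, edgeR adjusted p = 1.98e-05). Pde4b fell from 38.5 ± 2.75 to 25.7 ± 4.46 CPM (log2 fold change -0.58, SE 0.115, edgeR adjusted p = 0.00518), also with no overlap. Pde4d made up 13.0% ± 1.26 of the Pde4a, Pde4b, Pde4c and Pde4d transcripts per length in WT and 17.9% ± 1.151 in TAZG197V, with no overlap. Pde7b was lower (log2 fold change -0.56, edgeR adjusted p = 0.0185), a call lost with the atrial marker level as covariate and without WT 1, TAZG197V 2 or TAZG197V 3 alone. Pde3b was not called (0.26, edgeR adjusted p = 0.164). Pde1c, named here after its value was seen as the 1 that rose, had a log2 fold change of 0.41 (adjusted p = 0.0409). The Pde1c call held in 8 of 19 other fits. It was lost when WT 1, WT 2, TAZG197V 1, TAZG197V 2 or TAZG197V 3 was left out alone, with values from 0.31 to 0.71 over the single omissions, and with the atrial marker level as covariate (edgeR adjusted p = 0.430).

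Prkaca encodes the main catalytic subunit of PKA (ENSMUSG00000005469, chr8:83972993-83996443, plus strand). WT 1 to WT 4 gave 257.6, 217.6, 233.2 and 237.0 CPM, from 7616, 7918, 6006 and 5308 counts. TAZG197V 1 to 4 gave 172.6, 170.0, 169.5 and 173.2 CPM, from 4750, 6300, 5254 and 4722 counts. The 4 TAZG197V libraries lay within a narrow band (coefficient of variation 1.06%) below every WT library (6.97%), and the difference in spread was not tested. The level was 1.39-fold higher in WT (log2 fold change -0.48, SE 0.0620, 95% interval -0.62 to -0.33, edgeR adjusted p = 0.00067). Without WT 1 and WT 2 the log2 fold change was -0.45 (edgeR adjusted p = 0.00433).

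Prkar1a encodes a regulatory subunit that holds the catalytic subunit inactive until cAMP binds (ENSMUSG00000020612, chr11:109649405-109669656, plus strand). Its level was 536.5, 515.3, 589.3 and 545.8 CPM in WT and 657.2, 729.3, 732.6 and 556.2 CPM in TAZG197V. Libraries TAZG197V 1 to 3 stood above all WT libraries, and TAZG197V 4 lay within the WT range. The mean rose from 546.7 ± 31.1 to 668.8 ± 82.8 CPM (log2 fold change 0.26, SE 0.0647, 95% interval 0.11 to 0.41, edgeR adjusted p = 0.0137). Without TAZG197V 4 the log2 fold change was 0.37 (edgeR adjusted p = 0.00725). The call was lost with the atrial marker level as covariate (log2 fold change 0.22, adjusted p = 0.226) and when WT 1, TAZG197V 2 or TAZG197V 3 was left out alone.

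Per length, Prkar1a stood at 1.34 ± 0.106 times Prkaca in WT and 2.25 ± 0.299 times in TAZG197V, and each TAZG197V library was above each WT library. Taken over all measured regulatory and catalytic subunit genes the ratio was 1.43 ± 0.103 in WT and 2.25 ± 0.260 in TAZG197V. The other abundant subunit genes were not called. Prkacb, the second catalytic subunit, had a log2 fold change of 0.03 (SE 0.0486, edgeR adjusted p = 0.615), and Prkar2a had -0.06 (SE 0.0514, adjusted p = 0.368). Prkar2b read 2.74, 3.90, 3.15 and 18.9 CPM in WT and 1.24, 1.38, 1.13 and 6.53 CPM in TAZG197V and was called lower (log2 fold change -1.58, edgeR adjusted p = 0.00124), but the groups overlapped because TAZG197V 4 lay above WT 1 to WT 3. The Prkar2b call was lost with no surrogate variables (edgeR adjusted p = 0.199), with lane and with the atrial marker level as covariate, and its value ran from -2.06 to -0.96 over the 19 other fits. Prkar1b was not called (0.20, edgeR adjusted p = 0.420) and was likewise highest in the number 4 libraries, at 8.08 and 18.7 CPM against 1.59 to 2.72 in the other 6. Pkia, an inhibitor that binds the free catalytic subunit, fell from 314.2 ± 17.3 to 180.8 ± 17.0 CPM (log2 fold change -0.79, SE 0.0825, edgeR adjusted p = 0.000224) with no overlap.

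**Figure D4:**
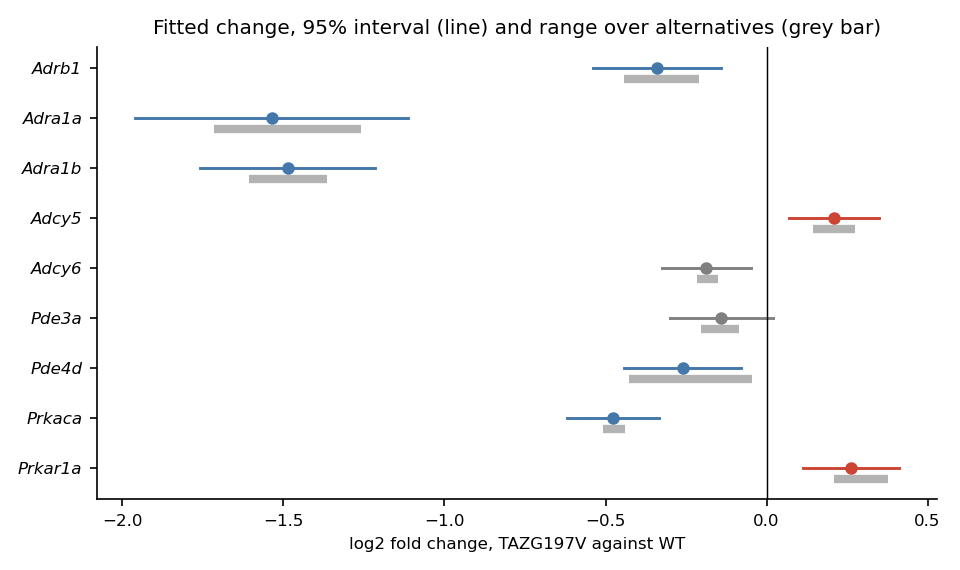
Fitted log2 fold change of TAZG197V against WT for the 9 genes, with the 95% interval as a line and the range over 19 other fits as a grey bar. Red marks called higher, blue called lower and grey not called. Adra1a, Adra1b and Prkaca stayed called in all 19 fits, and Pde4d ran from -0.43 to -0.05.

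Within each lane, where 2 libraries of each genotype were compared and no test was run, the sign of the difference was the same as in the fit for all 9 genes. The log2 ratio of means in lane 7 and lane 8 was -1.73 and -1.39 for Adra1a, -1.62 and -1.36 for Adra1b, and -0.47 and -0.46 for Prkaca. It was much less even for Pde4d, at -0.01 and -0.41, and for Adrb1, at -0.12 and -0.50. Adcy5 had 0.37 and 0.09, and Prkar1a had 0.40 and 0.18. With lane as a covariate the calls of Adrb1 and Prkar1a were lost (edgeR adjusted p = 0.0631 and 0.0622), as was that of Pde4d (adjusted p = 0.231). That fit held 0 surrogate variables against 2 in the main fit. With no surrogate variables and no lane term the edgeR adjusted p was 0.0485 for Adrb1, 0.0459 for Prkar1a and 0.213 for Pde4d.

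The order of the 9 genes by level per length was headed in both genotypes by Prkar1a, Prkaca, Adcy6 and Adcy5, at 126.5, 95, 33.7 and 13.8 CPM per kb in WT and 154.8, 68.9, 29.8 and 16.2 in TAZG197V. Adra1b came next in WT at 11.8 CPM per kb, and its range overlapped those of Adcy5 above it and Pde3a (11.3) below it. In TAZG197V it stood at 4.21 CPM per kb, below Pde3a (10.3) in all 4 libraries and overlapping Adrb1 (3.70). Adra1a stood at 4.05 CPM per kb in WT, overlapping both Adrb1 (4.59) and Pde4d (2.40), and at 1.35 in TAZG197V, below Pde4d (2.07) in all 4 libraries.

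The further pathway genes comprised 105 genes in 13 lists, of which 99 were tested. Of these 34 were lower, 8 were higher and 57 were not called, with a median log2 fold change of -0.18. Over all tested genes 15.1% were lower and 18.5% higher. Groups did not overlap in 32 of the 99, close to the 33.2% of all tested genes. The A-kinase anchoring proteins, which hold PKA close to its targets, had the most lower genes, 7 of 10, with 0 higher and a median of -0.27. With the atrial marker level as covariate 2 of the 7 stayed called, Akap1, named here after its value was seen, and Akap13. Over all 19 other fits the 7 genes kept their sign, and the log2 fold change of Akap12, for example, ran from -0.53 to -0.41. Akap7, also named after its value was seen, was less steady. It ran from -0.38 to -0.15 and was called in 11 of the 19. Akap13 fell from 136.0 ± 18.1 to 96.2 ± 6.94 CPM (log2 fold change -0.49, SE 0.104, edgeR adjusted p = 0.00719) and Akap12 from 59.1 ± 3.76 to 42.6 ± 6.05 CPM (-0.47, adjusted p = 0.00221). Akap5, at 5.11 ± 0.618 and 3.59 ± 0.841 CPM, had a log2 fold change of -0.54 (edgeR adjusted p = 0.0478), a call that held in 8 of 19 other fits.

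Proteins that bind cAMP apart from PKA were mixed, with 2 of 5 lower and 1 higher. Rapgef3, the exchange factor Epac1, had a log2 fold change of -0.28 (edgeR adjusted p = 0.00807), and Bves, a Popeye domain protein, had -0.30 (adjusted p = 0.0162). Popdc3 of the same family rose (0.43, edgeR adjusted p = 0.0158). The Rapgef3 call was lost with the atrial marker level as covariate (edgeR adjusted p = 0.0613). The Popdc3 call was lost with the atrial marker level as covariate and without WT 1, TAZG197V 1 or TAZG197V 2 alone, and that of Bves without TAZG197V 2. Without WT 1 and WT 2 none of the 3 calls held.

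Of 11 PKA targets of heart muscle 5 were lower and 0 were higher. Pln, the inhibitor of the sarcoplasmic calcium pump, fell from 1645 ± 125 to 1034 ± 41.0 CPM (log2 fold change -0.66, SE 0.0794, edgeR adjusted p = 0.000462) with no overlap. For Pln 64.7% of exon bases lie in a gene on the opposite strand, and without a stated strand setting the reads of both cannot be told apart. Kcnq1, a potassium channel subunit that PKA regulates, had a log2 fold change of -0.53 (edgeR adjusted p = 0.00538). Ryr2, the calcium release channel, had -0.45 (adjusted p = 0.0225), a call lost without WT 1 or TAZG197V 4 alone, without both number 4 libraries and without WT 1 and WT 2.

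Transcription factors that cAMP drives, and their target genes, were counted separately. Of 7 CREB family and coactivator genes 3 were lower and 1 was higher. Atf1 rose from 25.1 ± 0.498 to 32.1 ± 1.69 CPM (log2 fold change 0.35, SE 0.0620, edgeR adjusted p = 0.00307), Creb1 had -0.24 (adjusted p = 0.0334) and Crtc2 had -0.26 (adjusted p = 0.0216). The calls of Creb1 and Crtc2 held in 11 and 13 of 19 other fits. Crem was not called (-0.14, edgeR adjusted p = 0.252). Of 9 genes that cAMP induces in many cells 1 was called, Sik1, which rose from 26.2 ± 5.6 to 40.4 ± 10.3 CPM (log2 fold change 0.66, SE 0.205, edgeR adjusted p = 0.0345). This call was lost when WT 3, WT 4, TAZG197V 1 or TAZG197V 2 was left out alone. Fos and Nr4a1, immediate early genes named here after their values were seen, had log2 fold changes of 1.52 and 1.36 but were not called (edgeR adjusted p = 0.241 and 0.193). Nr4a1 read 60.6, 93.3, 4.84 and 28.4 CPM in TAZG197V, a spread wider than the difference of the means.

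Genes that make or clear catecholamines held the largest changes of the pathway. Maoa, which degrades noradrenaline, read 5.82, 7.09, 5.24 and 4.87 CPM in WT and 64.2, 57.8, 36.5 and 81.0 CPM in TAZG197V. Its level was 10.8-fold higher in TAZG197V (log2 fold change 3.43, SE 0.186, edgeR adjusted p = 9.48e-06). Maob, the related oxidase, fell from 71.7 ± 14.0 to 34.7 ± 4.45 CPM (log2 fold change -1.06, SE 0.106, edgeR adjusted p = 0.000181). Per length the ratio of Maoa to Maob went from 0.0556 ± 0.0154 to 1.17 ± 0.375. Slc22a3, a transporter that takes up catecholamines outside neurons, fell from 10.2 ± 0.678 to 3.60 ± 0.966 CPM (log2 fold change -1.53, SE 0.124, edgeR adjusted p = 6.56e-05).

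**Figure D5:**
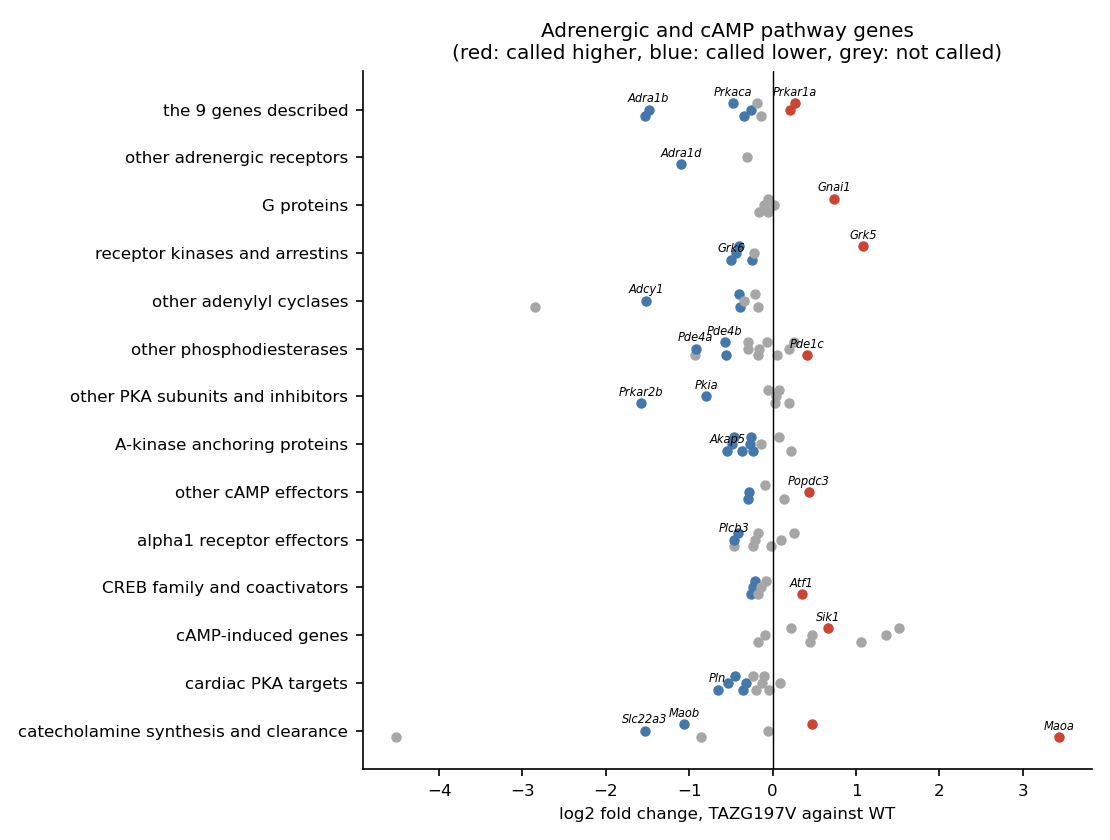
Fitted log2 fold change of TAZG197V against WT for each tested gene of the 9 genes described and of 13 lists of related genes, one point per gene, with a small vertical offset for legibility. Red points are called higher, blue called lower and grey not called. The anchoring proteins and PKA targets hold 7 and 5 lower genes and 0 higher, and Maoa lies farthest to the right at 3.43.

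The profile of Adra1b over the 8 libraries was compared with that of every tested gene, as the root mean square difference of centred log2 CPM. The 3 most alike were Med12l (0.141), Plxnb3 (0.147) and Gm48607 (0.171). Med12l read 8.27 to 12.6 CPM in WT and 3.65 to 4.25 in TAZG197V, and Plxnb3 read 3.81 to 5.04 and 1.20 to 1.83 CPM. Gm48607 was lower in level, at 1.24 to 2.2 and 0.587 to 0.690 CPM. This is a likeness of 8 values that are dominated by the difference between genotypes.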

How the data were processed

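RNA of mouse heart was sequenced in 4 WT and 4 TAZG197V TruSeq libraries as single-end reads of 50 bases. As the labels and methods state, the authors used bcl2fastq 2.20.0, FastQC 0.11.9, STAR 2.7.3a on mm10 and featureCounts of Subread 2.0.0. The deposited values are raw counts for each Ensembl ID. Which annotation release and strand setting were used, and how multiply aligned reads were treated, is not given in the sources used here, so counts of genes that overlap another gene are less certain. Overlap is given in the text for members and for the genes where it bears most, and not for every named gene. The labels do not say that each library is a separate animal, so p-values measure the spread between these libraries. ERCC rows (92) summed to 0 counts and were left out. Symbols and positions came from GENCODE M21 (55144 of 55471 IDs).

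The analysis used edgeR 4.0.16 in R 4.3.3, with filterByExpr, TMM scaling and the quasi-likelihood F-test, two-sided, with 2 surrogate variables from svaseq (sva 3.50.0, seed 1, genotype protected) and Benjamini-Hochberg adjustment over 15084 genes. The text calls a gene at an adjusted p under 0.05, a fold beyond 1.15 and a mean size-factor-scaled count of at least 50. Ratios and per-length values use TMM-scaled CPM divided by exon length, taken over all annotated exons of a gene together. A profile likeness uses log2 CPM with a prior count of 2. The procedure was tested on simulated counts with known changes. Those counts held no differences in tissue content or lane between libraries, so the handling of such differences was not tested. Total counts ran from 23055689 to 36301031, and the part of counting error in the spread between libraries was not worked out for single genes. The chi-square between libraries of a genotype was at least 10.2 per gene, so no library repeated another. The members and lists were chosen with earlier results of these data known. The text names the 9 members, a chosen list of their relatives (not all family members), up to 3 called genes of largest change per list, and the 3 profiles most like that of Adra1b. One listed gene is not reported here. Any other gene is said to have been picked after its value was seen.

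Alternatives were DESeq2 1.42.0, its size factors, 0 or 1 surrogate variable, lane, replicate number or atrial marker level as covariate, no low-count filter, a fold of 1.5, no mitochondrially encoded genes, and omission of each library or both number 4 libraries. Lane, replicate number and atrial marker level as covariate each took the place of the surrogate variables. Those fits therefore differ from the main fit in both respects. Omission of WT 1 and WT 2 was chosen after seeing the data. For the pairing check, deviations of same-numbered libraries correlated at 0.277, 0.0436, 0.280 and 0.416 for numbers 1 to 4. The labels state no pairing, so the main fit did not take the numbers as pairs. A fit with the number as a block is given below.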

Additional observations from a re-analysis of the deposited data

Results flagged for a closer look

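One of the 18 groups of 4 libraries tested for the 9 genes held a library far from the others. Adrb1 in TAZG197V 2 stood at 14.2 CPM while the other 3 TAZG197V libraries ranged from 11.7 to 12.1 CPM, a gap of 0.86 of the whole range of the group on the log2 scale, above Dixon's 95% critical value for 4 values. About 0.9 such groups would be found by chance among 18. Without TAZG197V 2 the log2 fold change of Adrb1 was -0.43 (edgeR adjusted p = 0.0104).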

How the results depend on the processing

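The sign of the log2 fold change was the same in all 19 other fits for each of the 9 genes, and Adra1a (-1.72 to -1.26), Adra1b (-1.61 to -1.36) and Prkaca (-0.51 to -0.44) were called in all 19. Adrb1 was called in 11, Adcy5 in 10, Prkar1a in 12 and Pde4d in 6 of them, while Adcy6 was called once, without WT 2, and Pde3a once, without WT 3. Of the 42 other pathway genes called, all kept their sign and 13 were called in all 19 fits. The cause of the lost calls was not tested.

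Genes called numbered 5060, of which 2 members were higher, 5 members lower, 8 other pathway genes higher and 34 lower. With lane as covariate 1 member was higher, 3 were lower and 5 other pathway genes were higher. With the atrial marker level as covariate 3296 genes were called, 0 members were higher, and 5 other pathway genes were higher and 16 lower. A fold beyond 1.5 left 1843 genes, 0 members higher and 2 lower, and 4 other pathway genes higher and 8 lower, by its construction. DESeq2 and its size factors each gave 1 member higher, and without the low-count filter 3 members were lower. Without both number 4 libraries 3 members were lower. Without WT 1 and WT 2 there were 0 members higher and 20 other pathway genes lower. With each library left out in turn, genes called ranged from 3675 to 4816, members higher from 0 (without WT 1 or TAZG197V 2) to 2, members lower from 3 (without WT 4 or TAZG197V 4) to 5, other pathway genes higher from 4 (without TAZG197V 1 or 2) to 9, and other pathway genes lower from 23 (without TAZG197V 2) to 32.

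With the replicate number as a block 0 members were higher and 3 were lower, which were Adra1a, Adra1b and Prkaca, among 4272 genes called. The labels do not say what a shared number means. Among the TAZG197V libraries, WT 1, WT 2 and WT 4 correlated best with their own number. WT 3 deviated more like TAZG197V 2 (0.317) than TAZG197V 3 (0.280), so not every library correlated best with its own number.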

Other observations

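Some pathway genes of low level differed between genotypes without reaching the mean count needed for a call, and they are named after their values were seen. Dbh, the enzyme that makes noradrenaline from dopamine, had 116, 123, 45 and 37 counts in WT 1 to WT 4 and 5, 3, 4 and 1 counts in TAZG197V 1 to 4 (log2 fold change -4.52, SE 0.418, edgeR adjusted p = 0.000131). Its 2 highest counts lay in WT 1 and WT 2, the libraries with most atrial transcripts. The 19 other fits included omission of WT 1 and WT 2 and the atrial marker level as covariate. Over them the log2 fold change of Dbh ran from -5.04 to -4.01. Their highest adjusted p was 0.00175 (edgeR, without TAZG197V 2), and the cause of the difference was not tested. Adcy8, a calcium-stimulated adenylyl cyclase, had 35 to 63 counts in WT and 2 to 13 in TAZG197V (log2 fold change -2.85, SE 0.392, edgeR adjusted p = 0.000885). Pde2a, a phosphodiesterase that cGMP stimulates, had 52 to 63 counts in WT and 26 to 45 in TAZG197V (log2 fold change -0.93, SE 0.187, edgeR adjusted p = 0.00541), and 64.3% of its exon bases lie in another gene on the same strand, so its counts are uncertain.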
